A study of Drosophila melanogaster with 4 samples.

Results

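Tight clusters of peaks bound by the Drosophila melanogaster protein Distal-less (Dll) were examined in white prepupae. Peaks of the 5 large chromosome arms 2L, 2R, 3L, 3R and X were chained while no more than 1000 bp lay between the end of one and the start of the next, and chains of 5 or more peaks were kept. The rule gave 222 clusters with 1366 peaks, out of 15615 peaks on these arms and 16117 in the whole list. The clusters held 8.75% of the arm peaks and took up 1.60 Mb, or 1.34% of the summed span of the arms from first to last peak.

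The data come from chromatin immunoprecipitation followed by sequencing (ChIP-seq), with 2 libraries of Dll ChIP DNA and 2 libraries of input DNA, which is chromatin that was not precipitated. All 4 libraries are from white prepupae of the strain Y cn bw sp, whose genotype combines y[1], cn[1], bw[1] and sp[1] with oc[R3.2], CG33964[R4.2] and lab[R4.2] and with Rh6[1], GstD5[1], MstProx[1], LysC[1], Gr22d[1] and Gr22b[1]. The antibody was an affinity-purified rabbit polyclonal serum against Dll. The authors deposited 1 list of peaks for the series, with a start, an end and 1 score of the peak caller MACS for each peak, so there are no values for single libraries, no replicate error and no depth. No p-value is therefore given: peaks and clusters of 1 list share their libraries and are not replicates. Whole prepupae contain many tissues, so a peak that is strong in few cells and one that is weaker in many cannot be told apart.

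Dll is a homeodomain transcription factor that binds DNA directly and is best known for directing the growth and identity of the distal parts of legs and antennae. White prepupae mark the start of metamorphosis, when a pulse of the steroid hormone ecdysone makes the imaginal discs, the precursors of the adult limbs, unfold. Regulatory DNA of developmental genes is often built from several bound stretches that lie near each other, and a peak caller can report such a region as a chain of separate peaks. Strong and weak peaks below are those with high and low scores. The score is the value that the peak caller gave a peak, and it is compared only within the list. Its scale was not named, so differences and ranks are given and no fold of binding is drawn from it. A percentile below is the rank of a peak's score among the 15615 arm peaks, with the mean rank for ties.

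Most clusters were short chains. Of the 222, 107 had 5 peaks, 50 had 6, 34 had 7 and 31 had 8 to 12, with 2 clusters reaching 12. Lengths ran from 2873 to 33813 bp with a median of 6221.5 bp and quartiles of 5126.5 and 8213.8 bp. Clusters shorter than 5 kb numbered 48 and clusters longer than 10 kb numbered 29. Lengths grew with the number of peaks, with medians of 5215 bp for 5 peaks, 6330.5 bp for 6, 7230 bp for 7 and 11332 bp for 8 to 12. They overlapped widely, since a cluster of 5 peaks reached 12077 bp and one of 8 to 12 peaks was as short as 5631 bp.

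**Figure D1:**
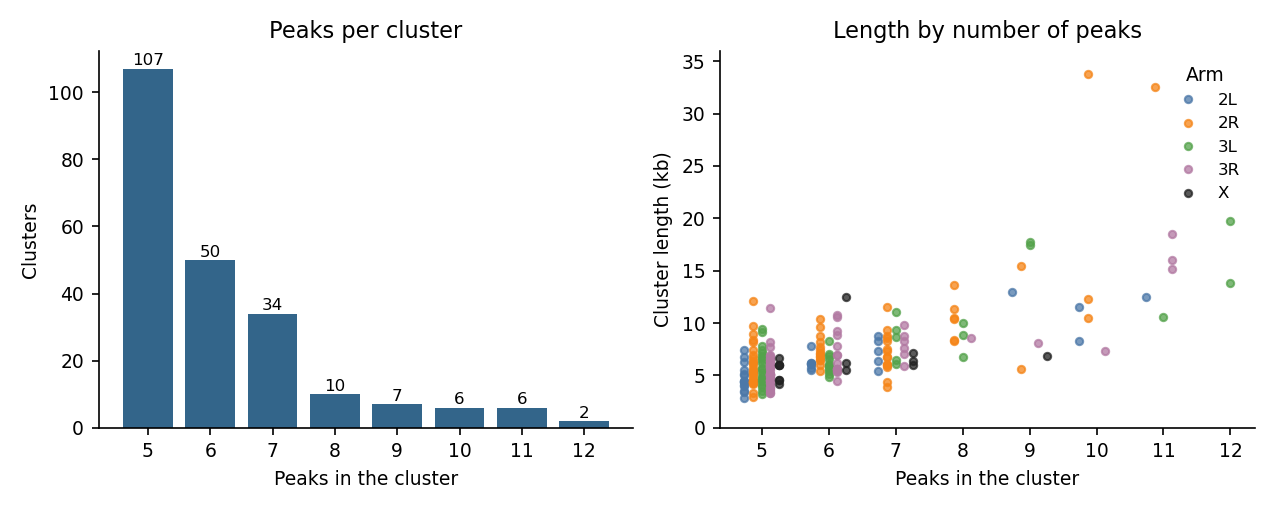
Left, number of clusters by the number of peaks they hold. Right, length of each cluster in kb by its number of peaks, 1 point per cluster, coloured by chromosome arm. The 2 points above 30 kb are both on 2R, and the other clusters are shorter than 20 kb.

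Peaks filled most of a cluster. A median of 67.6% of the cluster length lay inside peaks (interquartile range 59.8 to 73.8%), from 40.4 to 92.7%. The 1144 gaps within clusters had a median of 402 bp and ran from 50 to 999 bp. Centres of neighbouring peaks lay a median of 1149.8 bp apart (interquartile range 851.8 to 1483.6 bp). The joining distance fixes the upper end of the gaps, and it also counts wide peaks as closer than narrow ones with the same spacing of centres.

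At the border of the rule, the widest gap kept inside a cluster was 999 bp, once in a 3R cluster at 10563613 to 10569455 and once in an X cluster at 12644552 to 12650754. On 3R, a gap of 995 bp joined the first peaks of the cluster at 14950140 to 14956272. Just outside, a gap of 1007 bp ended the 2R cluster at 2996406 to 2999685, one of 1018 bp the 3L cluster at 15092270 to 15099353, and one of 1020 bp the 2L cluster at 7316269 to 7323742. Gaps of 901 to 1000 bp made up 60 of the 1144 joins. In 29 cases a cluster ended at a gap of 1001 to 1100 bp. Chains of 4 peaks, which the rule leaves out, numbered 260 and had a median length of 3833.5 bp.

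The median score was 21.35 for peaks inside clusters, with quartiles of 13.83 and 43.60, against 19.97 in groups of 4, 18.75 in groups of 3, 16.94 in groups of 2 and 15.80 for the 7240 peaks that stood alone. Median widths ran in the same order, from 568.5 bp in clusters, 519.5, 489 and 442 bp in groups of 4, 3 and 2, to 394 bp for peaks alone. Wide peaks over 2000 bp made up 6.81% of the peaks in clusters (93 peaks) and 1.97% of the other arm peaks (281 peaks). Width enters the rule through the edges of the peaks, and score goes with width: ranked together, width and score had a Spearman correlation of 0.728 in clusters and 0.716 in the other arm peaks, across peaks that share their libraries.

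At a similar width, peaks in clusters did not have the higher scores throughout. Among peaks of up to 300 bp the median score was 11.29 in clusters (209 peaks) and 10.97 elsewhere on the arms (3846 peaks). Among peaks of 301 to 500 bp it was 16.22 in clusters (374 peaks) and 15.13 elsewhere (4691 peaks). In both of these ranges the clusters were slightly above the rest. Among those of 501 to 800 bp it was 24.62 in clusters (349 peaks) and 25.78 elsewhere (3182 peaks). For 801 to 1500 bp the medians were 40.65 in clusters (287 peaks) and 49.08 elsewhere (1906 peaks), and above 1500 bp they were 95.68 in clusters (147 peaks) and 110.06 elsewhere (624 peaks). The higher median of clusters over all widths thus stood beside lower medians among peaks wider than 500 bp.

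Shares of strong peaks in clusters lay near those of the list or slightly above, and not for every cluster size. The highest 10% of arm peaks, with scores of 86.04 or more, made up 12.4% of the peaks in clusters (170 peaks, exact 95% Clopper-Pearson interval 10.7 to 14.3%), against 10.0% of all arm peaks. The highest 1%, with scores of 305.42 or more, made up 1.39% of the peaks in clusters (19 peaks, interval 0.839 to 2.16%), against 1.01% of all arm peaks. That share of the list lies within the interval. For the highest 25%, with scores of 34.79 or more, the shares were 30.7% in clusters (420 peaks, interval 28.3 to 33.3%) and 25.1% over all arm peaks. Groups of 4 peaks had similar shares, of 13.2% for the highest 10%, 1.92% for the highest 1% and 31.3% for the highest 25%, so these values do not set clusters of 5 or more apart from shorter chains. These intervals cover counting error only and treat peaks as independent. By size, the highest 10% made up 13.6% in clusters of 5 peaks, 14.0% in those of 6, 7.98% in those of 7 and 12.3% in those of 8 to 12. For the highest 1% the shares were 1.87%, 2.33%, 0.420% and 0.341% in the same order. Of the 10 highest peaks of the arms, 2 lay in clusters. Conversely, 525 peaks in clusters, or 38.4%, scored below the middle rank of the arm peaks.

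Scores varied widely inside clusters. The median score of the highest peak was 87.19, with quartiles of 44.76 and 156.2, and that of the lowest peak was 10.77, with quartiles of 9.32 and 14.06. Differences between highest and lowest ran from 3.46 to 580.68, with a median of 74.80 and quartiles of 32.47 and 144.8. When peaks were instead joined by centres within 1500 bp, which does not count wide peaks as closer, the median difference was 42.33. In ranks, the highest peak stood at a median percentile of 90.1 and the lowest at 19.8. The distance between them was over 50 percentiles in 161 clusters (72.5%) and over 90 percentiles in 12. In 98 clusters (44.1%) a peak from the highest 25% of the arm peaks and one from the lowest 25% lay in the same chain. No random sets of as many peaks were drawn from the list for comparison. These counts and distances therefore do not show a wider spread of scores inside clusters than across the list.

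**Figure D2:**
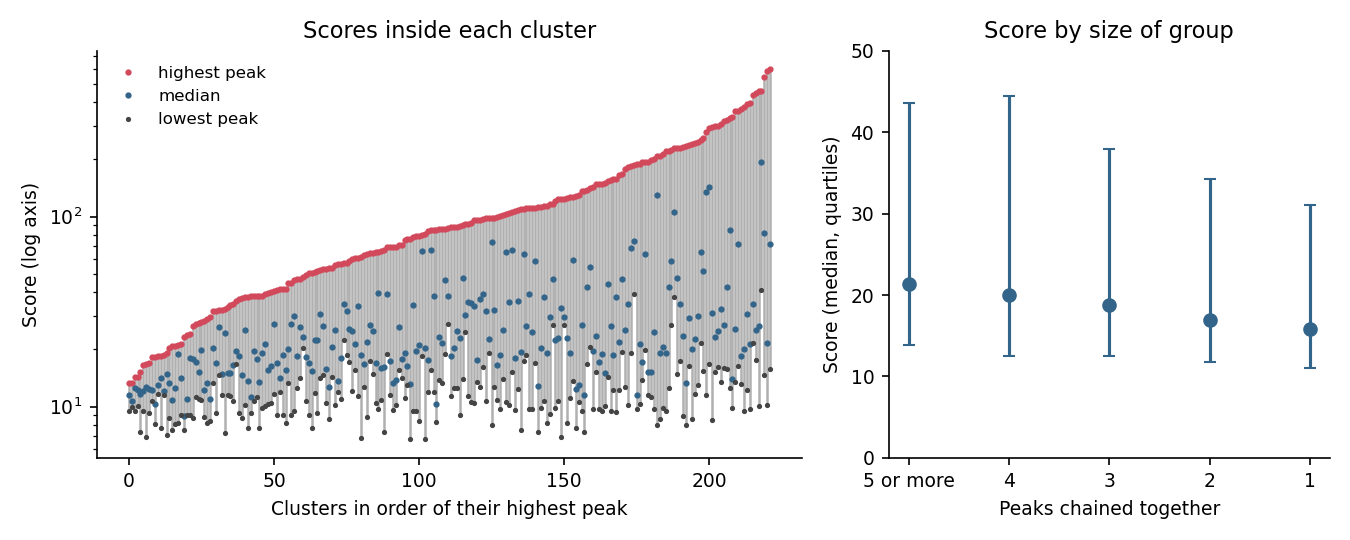
Left, each grey line is 1 of the 222 clusters, from its lowest to its highest score on a log axis, in order of the highest peak, with the median of the cluster in blue. Right, median score with quartiles of peaks in clusters of 5 or more and in groups of 4, 3, 2 and 1 peaks. The highest peaks run from 13.29 to 596.4, while the lowest peaks run from 6.73 to 41.05.

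The place of a peak in one cluster or another accounted for little of its rank. Differences between clusters made up 16.4% of the variance in percentile (intraclass correlation), against 24.7% between groups of 2 to 4 peaks. Neighbours inside clusters had a Spearman correlation of scores of 0.254 over 1144 pairs, which overlap and share their libraries. For groups of 2 to 4 it was 0.264 over 4087 pairs. A longer chain gives more chances of both a high and a low peak, and the median distance between highest and lowest was 62.0 percentiles in clusters, 50.4 in groups of 4, 38.9 in groups of 3 and 23.2 in groups of 2.

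Few clusters held several strong peaks, where the highest 10% made up 12.4% of the peaks in clusters and 10.0% of all arm peaks. No peak of the highest 10% was present in 108 clusters (48.6%), 71 clusters (32.0%) held 1, 34 (15.3%) held 2 and 9 held 3 or more. No cluster exceeded 4, and 4 clusters reached that number. What random sets of as many peaks would hold was not computed, so these counts are not read as a trait of clusters. The second highest peak had a median score of 39.41, and it lay a median of 32.99 below the highest. More peaks did not go with a higher top score: the Spearman correlation of the number of peaks with the highest score was 0.0569 across the 222 clusters. For cluster length it was 0.446. Among clusters of 7 peaks the highest score had a median of 65.66, against 85.28 for 5 peaks, 108.3 for 6 and 123.3 for 8 to 12.

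The cluster with the highest peak lay on 2R at 4532342 to 4540508. From low to high coordinate, its 6 peaks scored 15.72, 71.87, 258.57, 596.4, 28.44 and 72.48. The highest, of 2103 bp, thus stood inside the chain beside the second highest. In the next cluster, on 3L at 17554934 to 17560318, the scores were 10.15, 19.69, 581.89, 18.75, 23.7 and 105.11. Here a peak of 961 bp, the widest of its cluster, stood between peaks that scored below 24, and the second highest lay at the far end.

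On 3R, the cluster at 16602727 to 16611939 had scores of 19.41, 301.55, 143.69, 14.62, 540.2 and 17.89. Its 2 strongest peaks were separated by 2 others, one of them below the middle rank of the list. The 3L cluster at 10729798 to 10737254 scored 442.45, 79.2, 460.25, 192.85 and 41.05. It was the cluster with the highest median score, 192.85, and even its lowest peak was at percentile 78.4. The 3L cluster at 733430 to 740262 scored 18.36, 39.47, 10.11, 26.58 and 459.6. Its highest peak stood alone at the end of the chain, and the other 4 peaks scored below 40.

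**Figure D3:**
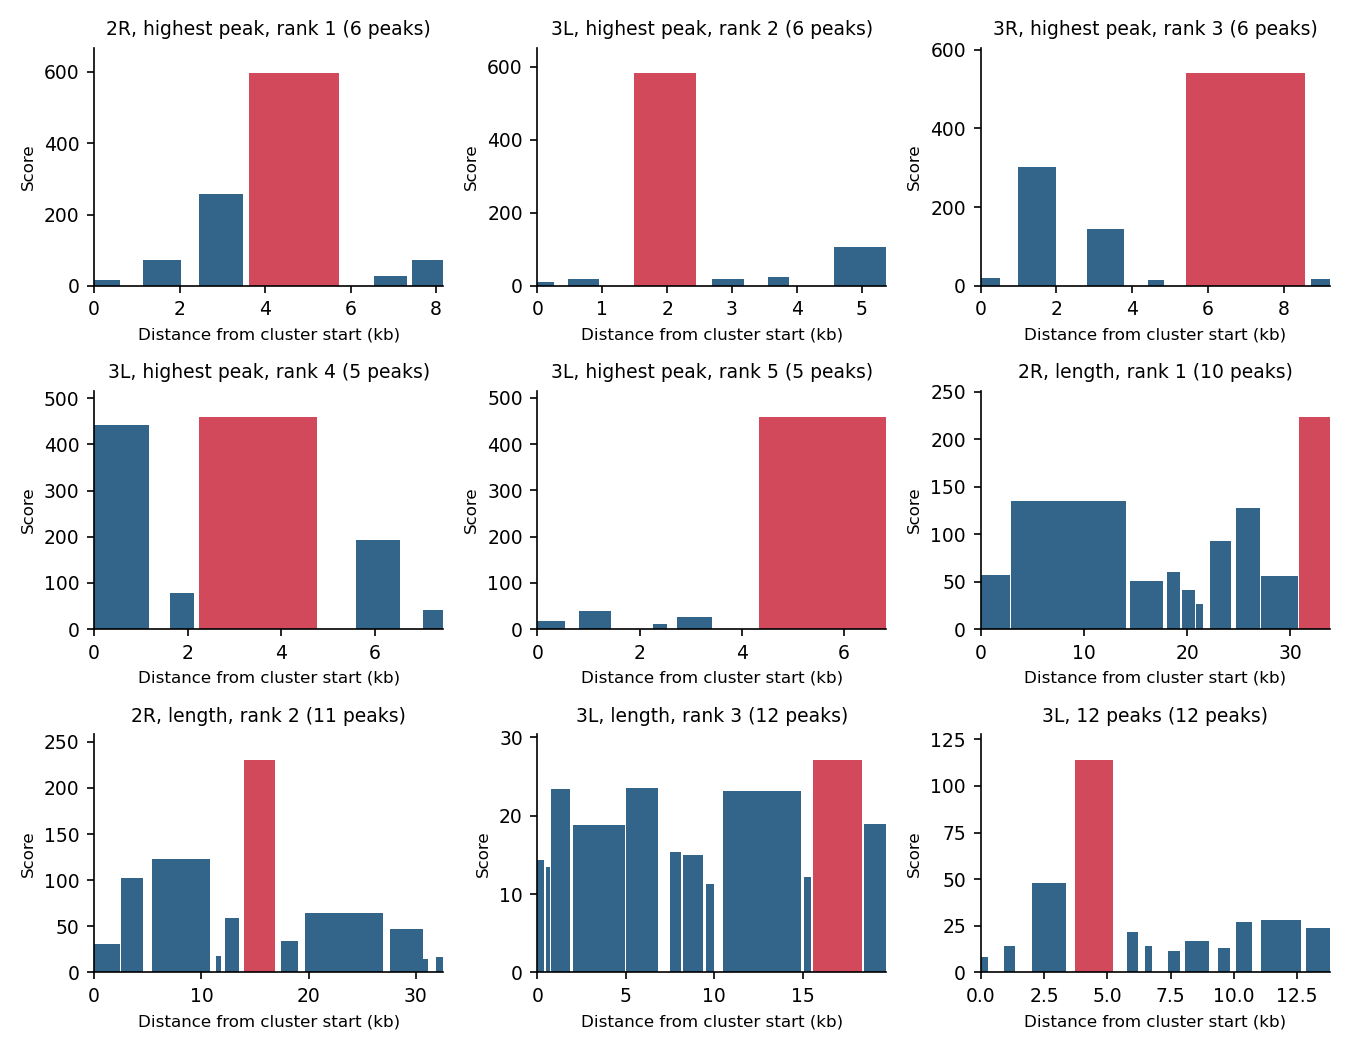
Peaks of 9 clusters drawn to scale: the horizontal axis is the distance from the start of the cluster in kb, each bar is 1 peak with its true width, and its height is the score, with a separate scale from 0 in each panel. The highest peak is red. The panels show the 5 clusters with the highest peaks, the 3 longest, and the other cluster of 12 peaks. On 3L the highest peak of the long cluster at the arm tip reaches 27.14, against 223.95 and 230.55 on 2R.

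After that cluster of 3L, the highest median scores belonged to 3L at 17957595 to 17966775 (142.96), X at 3669786 to 3676492 (134.38), X at 7950412 to 7957563 (130.06) and 3L at 18183395 to 18189858 (106.26). In the X cluster at 3669786, the peaks scored 230.97, 134.38, 279.1, 90.18 and 11.51, so 4 of 5 were among the highest 10% of arm peaks. In that at 7950412, scores were 164.74, 130.06, 148.15, 7.96, 207.5, 11.68 and 46.29. Each cluster thus combined 4 strong peaks with 1 or 2 from the lower part of the list.

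The longest clusters were neighbours near the high-coordinate end of 2R. The first in order, at 20686523 to 20719072, had 11 peaks over 32550 bp, of which 84.7% lay in peaks. Its scores were 30.84, 102.13, 122.7, 17.27, 59.13, 230.55, 33.61, 64.05, 47.48, 14.94 and 16.09. The second, at 20723341 to 20757153, had 10 peaks over 33813 bp with 92.7% in peaks, the highest coverage of any cluster. Its scores were 57.2, 135.37, 50.19, 60.1, 41.38, 26.85, 92.32, 127.72, 55.77 and 223.95. No peak of the second cluster was below percentile 68.0, whereas the first had 3 peaks near the middle of the list or below. The clusters were 4.27 kb apart, and 1 peak in between was too far from both to join them.

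The longest chain outside 2R lay at the tip of 3L, at 214 to 19965, the low-coordinate end of that arm. Its 12 peaks scored 14.37, 13.5, 23.35, 18.8, 23.57, 15.4, 14.97, 11.27, 23.16, 12.23, 27.14 and 18.88. All were between percentiles 22.8 and 68.3, so a high coverage of 88.7% went with even scores around the middle of the list. The other cluster of 12 peaks, on 3L at 10981558 to 10995348, covered 66.6% of 13791 bp, and its scores ran from 8.18 to 114.08. On 3R, 11 peaks at 11933026 to 11951516 ran from 8.53 to 296.01, and 11 at 12765532 to 12781528 ran from 9.76 to 200. The fifth longest cluster, on 3L at 659841 to 677586, had 9 peaks from 12.49 to 222.65.

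Some clusters consisted of weak peaks only. In 8 clusters every peak was below the middle rank of the arm list, and in 27 every peak was above it. The lowest top score, 13.29, was reached by 2 peaks of a 3R cluster at 12419955 to 12423279, where the 5 peaks scored 11.47, 13.29, 10.0, 9.52 and 13.29. A 3L cluster at 8456732 to 8459941 had the smallest difference, 3.46, between its highest score of 13.37 and its lowest of 9.91. On 2R, the cluster at 7346454 to 7349368 ran from 9.52 to 14.24, and on 3R the one at 14950140 to 14956272 ran from 10.1 to 14.33. These 4 clusters had 5 peaks each.

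The highest peak could stand anywhere in its chain. It was the first or last peak in 87 of 222 clusters, or 39.2% (exact 95% Clopper-Pearson interval 32.7 to 45.9%). End places made up an average of 34.2% of the places of a cluster, which lies within that interval. It was the first peak in 39 clusters and the last in 48. By size, the ends held the highest peak in 46 of 107 clusters of 5 peaks (43.0%, exact interval 33.5 to 52.9%, where end places are 40%), 25 of 50 clusters of 6 (50%, interval 35.5 to 64.5%, where they are 33.3%) and 7 of 34 clusters of 7 (20.6%, interval 8.70 to 37.9%, where they are 28.6%). For larger clusters the counts were 2 of 10 with 8 peaks, 3 of 7 with 9, 4 of 6 with 10, 0 of 6 with 11 and 0 of 2 with 12. The share at the ends was thus above that of end places for 5, 6, 9 and 10 peaks and below it for 7, 8, 11 and 12, and the interval left out the share of end places for 6 and for 10 peaks (22.3 to 95.7%, where it is 20%).

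**Figure D4:**
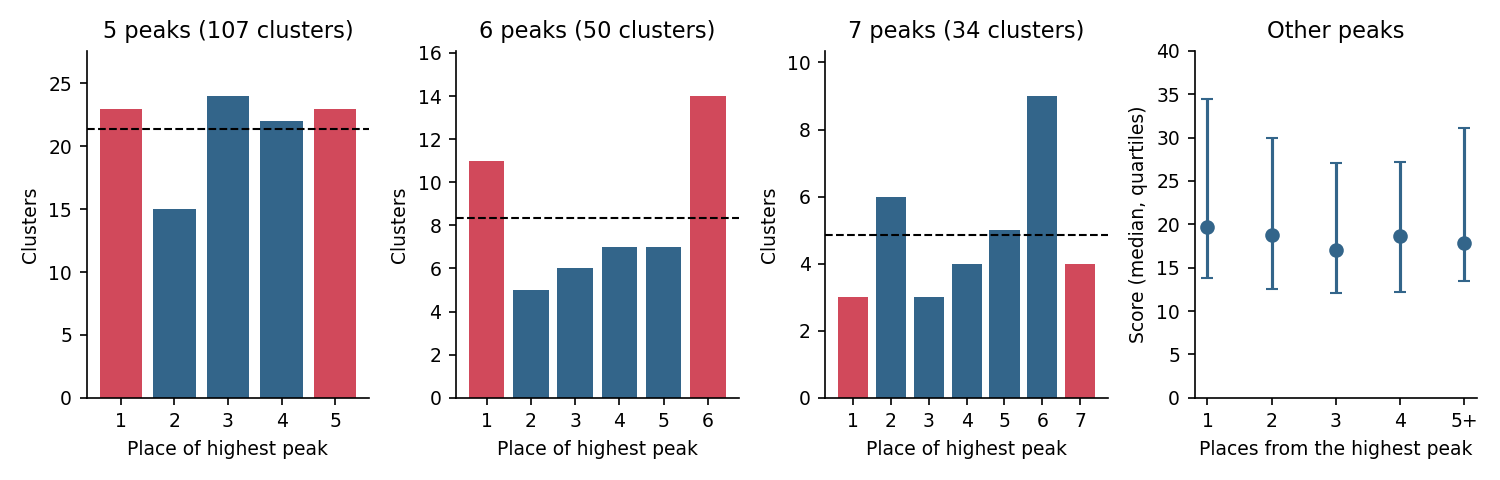
First 3 panels, number of clusters by the place of the highest peak, counted from the low-coordinate end, for clusters of 5, 6 and 7 peaks; end places are red and the dashed line is the mean number of clusters per place. Last panel, median score with quartiles of the other peaks by the number of places between them and the highest peak of their cluster. The medians lie between 17.02 and 19.73.

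Along the length of the cluster, the centre of the highest peak lay in the low-coordinate part in 68 clusters, in the middle part in 62 and in the high-coordinate part in 92, with the length cut into 3 equal parts. The high-coordinate part held the highest peak in 41.4% of clusters (exact interval 34.9 to 48.2%) and 35.9% of all peaks in clusters. As coordinates have no fixed relation to the direction of genes, this difference is given as a value only. End peaks and inner peaks had similar values, with median scores of 20.99 for 444 end peaks and 21.65 for 922 inner peaks, and median widths of 541.5 and 579 bp. The lowest peak was at an end in 81 clusters (36.5%) and the widest in 69 (31.1%).

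The highest peak was also the widest in 125 clusters, or 56.3% (exact interval 49.5 to 62.9%), where picking 1 peak of each cluster would average 17.1% of the places. The highest and second highest peaks were direct neighbours in 96 clusters, or 43.2% (exact interval 36.6 to 50.0%), while neighbours made up an average of 34.2% of the possible pairs. Scores of the other peaks changed little with the number of places from the highest. Their median was 19.73 for 357 peaks next to it, 18.80 at 2 places, 17.02 at 3, 18.60 at 4 and 17.80 at 5 or more. Read along the chain, 22 clusters climbed to a single summit, 122 had 2 summits, 63 had 3, 13 had 4 and 2 had 5, where a summit is a peak with a higher score than each of its neighbours in the cluster.

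Clusters were unevenly spread over the arms. X held 14 clusters, or 0.625 per Mb of its span, against 1.35 for 2L, 3.32 for 2R, 1.81 for 3L and 2.26 for 3R. Relative to the other 4 arms together, with 208 clusters or 2.16 per Mb, the density of X was 0.289 times as large. Of the peaks of X, 4.48% lay in clusters (83 of 1853, exact interval 3.58 to 5.52%), against 9.32% on the other arms (1283 of 13762, interval 8.84 to 9.82%). 2R had 70 clusters, 31.5% of all, on 17.7% of the summed span, and 13.1% of its peaks lay in clusters (441 of 3360, interval 12 to 14.3%). Its density was 1.81 times that of 2L, 3L and 3R together, which had 138 clusters or 1.83 per Mb. Peaks of a cluster are not independent, so these intervals are too narrow.

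X also had fewer peaks, 82.7 per Mb against 142.9 on the other arms. Windows of 1 Mb with similar numbers of peaks were therefore set side by side. In windows with 51 to 100 peaks, X had 0.462 ± 1.13 clusters (SD, 13 windows) and the other arms had 0.818 ± 1.08 (11 windows). In windows with 101 to 150 peaks, X had 1.25 ± 1.89 (4 windows) and the other arms had 1.18 ± 1.14 (39 windows). X was thus lower with 51 to 100 peaks, where most of its windows lie, and not with 101 to 150. Single windows varied by more than these differences. With up to 50 peaks, X had 0.5 ± 0.577 clusters (SD, 4 windows) and the other arms had 0 (3 windows). Peak numbers were not equal inside a range: with 51 to 100 peaks, windows of X averaged 81.6 peaks and those of the other arms 91.9. Windows of 2R had the higher mean in both ranges above 100 peaks. With 101 to 150 peaks, 2R had 2.0 ± 1.22 clusters (SD, 5 windows) and 2L, 3L and 3R had 1.06 ± 1.10 (34 windows). With more than 150 peaks, 2R had 4.62 ± 2.06 (13 windows) and 2L, 3L and 3R had 3.11 ± 2.23 (28 windows). Windows of 2R also held more peaks inside these ranges. They averaged 137.8 against 123.1 with 101 to 150 peaks, and 191.3 against 183.4 with more than 150. These differences of means were not tested. X had 1 window with more than 150 peaks, with 1 cluster.

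**Figure D5:**
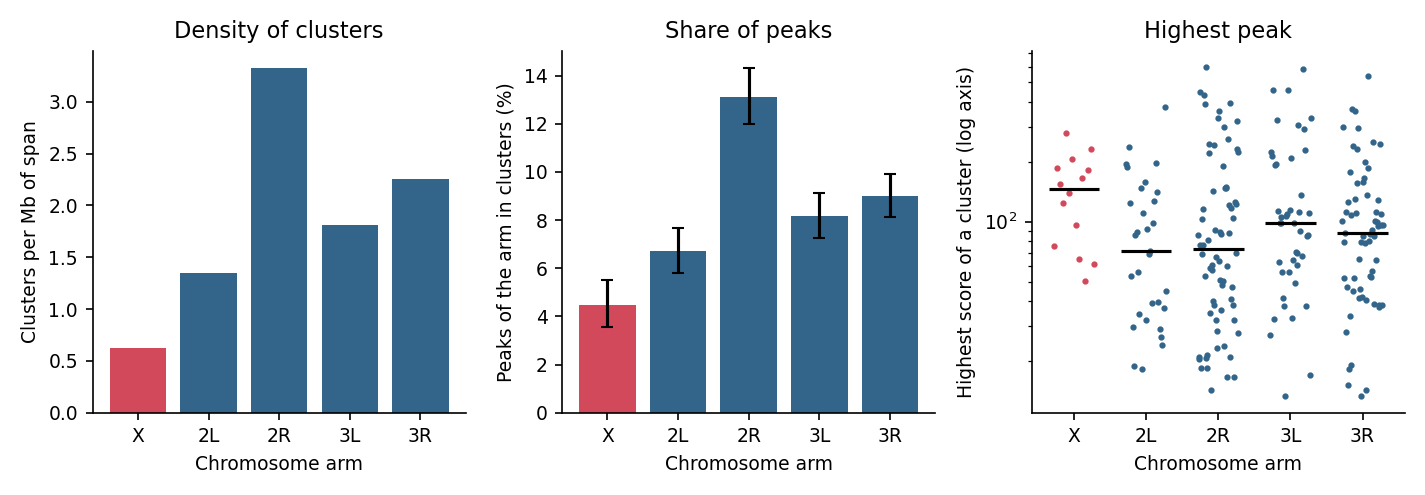
Left, clusters per Mb of the span from the first to the last peak of each arm. Middle, share of the peaks of each arm that lie in clusters, with exact 95% intervals that cover counting error only. Right, highest score of each cluster on a log axis, 1 point per cluster, with the median as a line. X is red; it has the lowest density, 0.625 per Mb, and the highest median of the top scores, 146.6.

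The few clusters of X had high scores. Their highest peaks had a median of 146.6 (14 clusters, from 50.65 to 279.1), against 71.16 for 2L, 72.89 for 2R, 98.64 for 3L and 87.66 for 3R. No cluster of X was without a peak above 50, whereas top scores began at 18.18 for 2L, 14.24 for 2R, 13.37 for 3L and 13.29 for 3R. The lowest of few values tends to be higher, and X had the fewest clusters. Outside clusters, peaks of X also had the higher median score, 19.42 against 16.38 on the other 4 arms together. Peaks of the highest 10% made up 22.9% of the X peaks in clusters (19 of 83) and 13.8% of the other X peaks (244 peaks). The same shares were 9.90% in clusters and 8.95% outside on 2L, 10.9% and 9.80% on 2R, 14.0% and 8.76% on 3L, and 12.1% and 9.28% on 3R. The share of strong peaks was thus larger inside clusters on all 5 arms, by little on 2L and 2R and most of all on X and 3L. On 2L it rested on 19 of 192 peaks in clusters and was not above the 10.0% of all arm peaks. On 2R it rested on 48 of 441. These differences were not tested. Over all arms, peaks in clusters were also wider, and width was not held equal here. The clusters of X at 3669786 and 7950412 alone gave 8 of the 19 on X.

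The cluster with the most peaks on X, with 9 at 17706771 to 17713673, was not among its strong ones, as its scores ran from 9.07 to 50.65. On 2L the cluster with the most peaks, 11 at 11173010 to 11185477, scored 21.68, 52.49, 11.29, 60.59, 69.61, 19.73, 10.57, 22.68, 86.16, 92.32 and 35.15. It had 3 separate summits with weaker peaks between them.

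Some clusters lay close to other clusters. The smallest distances were 1.02, 1.04 and 1.13 kb, all on 2R, where a gap just beyond the joining distance split neighbouring chains. The distances that a random placement would give were not computed. The 217 distances between neighbouring clusters of an arm had a median of 207.3 kb, but 19 were within 5 kb, 46 within 25 kb and 80 within 100 kb, while 33 were over 1000 kb. The longest stretches without a cluster were on X, with 5001 kb at 12650755 to 17651799 and 4687 kb at 7957564 to 12644551. On 2L a stretch of 3273 kb at 7899975 to 11173009 held none. Among 116 windows of 1 Mb, 37 had no cluster, and the mean was 1.86 ± 2.07 clusters (SD). With 11 clusters, the stretch of 3R from 12000184 to 13000183 had the most, followed by 8 on 2R from 20059208 to 21059207 and 8 on 2R from 3059208 to 4059207. These 3 windows held 12.2% of all clusters. They were picked as the fullest and were rich in peaks, with 306, 249 and 234, against 131.6 peaks per Mb over all arms. Whether clusters gathered there beyond the number of peaks was not tested.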

How the data were processed

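Peaks from 2 libraries of Dll ChIP DNA and 2 of input DNA were analysed as the 1 list that the authors deposited. Per the submitters' processing notes, the tools were MACS2, BWA and CASAVA, the last in versions 1.7.0.2 and 1.7.0.3, on build BDGP5, and per the file headers the list is GFF version 3 on FlyBase release 5, counted from 1. The deposited score of each peak is the authors' own value on an unnamed scale. For the calling threshold, the pooling of replicates and the depth per library, the sources used here give nothing. It is also not said whether replicates came from separate animals.

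Gaps were counted as the bases between 2 peaks. Medians, quartiles, ranks and exact 95% binomial intervals were computed with Python 3.11.15, pandas 2.3.3, numpy 2.4.6 and scipy 1.17.1; figures used matplotlib 3.10.9. An arm's span ran from its first to its last peak, and windows of 1 Mb from its first peak. The chaining was tested on simulated data. Peaks or clusters named by position were those with the most peaks, the greatest length, the highest or lowest scores or differences, the most peaks on an arm, and those nearest the joining distance. Members, rule and lists were chosen with earlier results of these data known; comparisons by width, by steps from the highest peak, of summits, of windows and of distances between clusters came after a look at the list. As the available gene table has release 6 coordinates, no gene near a cluster and no sequence or motif is given.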

Additional observations from a re-analysis of the deposited data

How the results depend on the processing

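Clusters of 5 or more depend on the joining distance by construction. With 500 bp, 53 clusters of 304 peaks were left, with a median length of 5961 bp. With 2000 bp there were 538 clusters of 3789 peaks, a median length of 7837.5 bp, a median score of 19.61 and 30.3% of highest peaks at an end, where end places averaged 31.6%. Chains of 4 or more gave 482 clusters of 2406 peaks, 4899 bp and a median difference between highest and lowest score of 59.57; chains of 6 or more gave 115 clusters of 831 peaks and 7308 bp. The highest 50% of peaks gave 53 clusters of 307 peaks, 6924 bp, a median score of 37.61 and a difference of 92.01. Centres within 1500 bp gave 138 clusters of 810 peaks, 5126.5 bp, a median score of 18.18, against 16.97 over all arm peaks, and a difference of 42.33. That setting tends to leave out wide peaks, which had the higher scores. Without peaks over 2000 bp there were 176 clusters of 1043 peaks, 5645 bp, a score of 19.73 and a difference of 54.55. The share of highest peaks at an end stayed within its interval in the other 8 alternatives. The average share of end places changed with the setting, so these shares have unlike baselines. It ran from 28.7% for chains of 6 or more, with 35.7% of highest peaks at an end, to 42.7% for 4 or more, with 43.8%. The density of X relative to the other arms was 0.258 to 0.409 times in all 9. The ends of the arms and the way of counting gaps, both tried after the list was seen, moved no value beyond its interval. In all, 28 of 63 values moved, every one of them in the other alternatives. The other way of counting gaps gave the same 222 clusters, so none of its values could move. For a count, moved means by more than 1.5 times, and for other values beyond the 95% interval of the reported one. No paired analysis was possible because the list has no values for single libraries. Leaving out a replicate was not run for the same reason. Depth is unknown, and how many chains would join through peaks below the authors' threshold was not tested.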

Other observations

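The 502 peaks outside the 5 large arms, on chromosome 4, on scaffolds of mapped heterochromatin and on the unplaced collections U and Uextra, were chained by the same rule. They formed 0 chains of 5 or more peaks. Some of these sequences hold few peaks, with 1 on XHet, 2 on YHet and 6 on 2LHet. U and Uextra held 51 and 347 of the peaks. As their sequence is unplaced, gaps between peaks there need not be distances in the genome. The count of 0 chains is therefore not set against that of the arms. Exact scores were shared with at least 1 other arm peak by 83.0% of the peaks in clusters, which leaves 1 cluster with a tie for its highest peak; there the peak with the lower coordinate was taken as the highest.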
